A study of Homo sapiens with 12 samples.

Results

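DNA is copied at replication forks, and the 43 genes described here encode the proteins that copy it and supply its building blocks. They were chosen as a list of gene names, with earlier results of these data known. The names were looked up in both count tables and joined by the Ensembl identifier without its version. All 43 were found among the 30358 genes that both tables share. The list holds 4 genes of DNA polymerase alpha-primase, 5 of DNA polymerases delta and epsilon, 10 of the sliding clamp, its loaders and Okazaki fragment joining, 3 of RPA, 7 of GINS, helicase activation and licensing control, 5 nucleotide enzymes, 5 genes of chromatin assembly and maintenance methylation, and 4 fork protection genes. The values come from poly-A RNA-seq of 2 established human cell lines, with 12 libraries in 4 groups of 3. Cells labelled KYSE30 (esophageal squamous cell carcinoma, ESCC) and cells labelled U138MG (glioblastoma, GBM), both of the genotype WT, received either the PTDSS1 inhibitor PTDSS1i (DS55980254) at 100 nM or its vehicle DMSO for 48 h. PTDSS1 makes phosphatidylserine, a membrane phospholipid. The question for each line was how PTDSS1i shifted the fork and nucleotide genes against DMSO, and a further test asked whether the lines differed in that shift.

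At a fork the CMG helicase, which holds the GINS complex, unwinds the template, RPA coats the single strands, and DNA polymerase alpha-primase lays down primers. RFC clamp loaders place the ring-shaped clamp PCNA on the primed ends, polymerase epsilon extends the leading strand and polymerase delta the lagging strand, and FEN1 and LIG1 process and join the Okazaki fragments. Ribonucleotide reductase and thymidylate synthase supply deoxynucleotides, while CAF-1, ASF1 and the UHRF1-DNMT1 pair restore nucleosomes and methylation behind the fork. Most of these genes are known as targets of E2F transcription factors and peak around S phase in cycling cells. Bulk libraries carry no information on single cells, so fewer cells in S phase and less of these RNAs per cell cannot be told apart in any value below.

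RefSeq promoter windows (GRCh38.p14), from 250 bases before to 50 bases after the annotated start, were matched for 38 of the 43 members. They are shown as a description, and whether they bear on the falls was not tested. The genes printed are some of those with the largest falls in their sub-group or line. Others of these, WDHD1, LIG1, POLD1 and TIMELESS among them, are not printed. Letter strings of the E2F type (TTCCCGC, then TTGGCGC, then TTCGCGC, and also TTGCCGC), the CCAAT box and the string TTTGAA were searched on both strands. Capitals mark every match, and each sequence runs 5′ to 3′ along the strand of its gene.
POLE2, chr14:49688165-49688464, minus strand: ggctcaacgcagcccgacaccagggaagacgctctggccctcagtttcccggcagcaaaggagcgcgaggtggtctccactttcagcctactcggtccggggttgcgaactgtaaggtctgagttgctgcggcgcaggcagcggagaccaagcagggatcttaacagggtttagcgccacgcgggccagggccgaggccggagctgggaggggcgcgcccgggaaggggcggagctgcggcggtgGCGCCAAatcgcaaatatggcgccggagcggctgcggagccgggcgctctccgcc
PRIM1, chr12:56752274-56752573, minus strand: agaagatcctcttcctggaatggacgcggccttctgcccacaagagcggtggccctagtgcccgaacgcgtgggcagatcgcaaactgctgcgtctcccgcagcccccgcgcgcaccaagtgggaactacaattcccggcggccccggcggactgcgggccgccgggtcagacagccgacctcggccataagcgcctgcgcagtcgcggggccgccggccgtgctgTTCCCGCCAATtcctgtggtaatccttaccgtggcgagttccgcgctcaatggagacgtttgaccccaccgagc
CHAF1B, chr21:36385142-36385441, plus strand: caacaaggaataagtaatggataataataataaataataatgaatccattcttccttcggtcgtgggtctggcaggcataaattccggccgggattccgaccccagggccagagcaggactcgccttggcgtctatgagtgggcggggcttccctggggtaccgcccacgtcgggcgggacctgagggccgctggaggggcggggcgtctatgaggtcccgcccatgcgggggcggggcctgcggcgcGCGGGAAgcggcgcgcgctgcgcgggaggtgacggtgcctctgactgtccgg
TYMS, chr18:657403-657702, plus strand: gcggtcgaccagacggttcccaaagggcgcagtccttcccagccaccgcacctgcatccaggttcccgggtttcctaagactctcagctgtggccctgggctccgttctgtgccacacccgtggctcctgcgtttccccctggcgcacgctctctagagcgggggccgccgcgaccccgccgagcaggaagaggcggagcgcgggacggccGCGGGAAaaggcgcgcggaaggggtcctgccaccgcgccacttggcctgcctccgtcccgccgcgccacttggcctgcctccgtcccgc
RRM2, chr2:10122489-10122788, plus strand: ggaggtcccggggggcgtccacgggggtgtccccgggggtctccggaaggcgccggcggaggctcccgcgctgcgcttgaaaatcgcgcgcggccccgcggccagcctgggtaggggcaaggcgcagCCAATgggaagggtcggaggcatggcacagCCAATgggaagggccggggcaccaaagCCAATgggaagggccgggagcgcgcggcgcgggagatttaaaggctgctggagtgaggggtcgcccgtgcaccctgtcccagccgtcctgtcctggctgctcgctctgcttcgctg
ASF1B, chr19:14136540-14136839, minus strand: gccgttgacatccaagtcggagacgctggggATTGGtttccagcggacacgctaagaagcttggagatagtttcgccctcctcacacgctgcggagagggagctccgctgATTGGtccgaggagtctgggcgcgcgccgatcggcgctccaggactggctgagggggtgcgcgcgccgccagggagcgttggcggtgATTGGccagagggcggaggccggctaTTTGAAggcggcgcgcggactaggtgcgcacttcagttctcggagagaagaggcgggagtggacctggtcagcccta

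The E2F strings lie 5 bases before the start in POLE2, 24 in PRIM1, 2 in CHAF1B and 39 in TYMS, counted from the first base of the match. In PRIM1 the match shares a base with a CCAAT box. RRM2 and ASF1B, which fell most in the libraries labelled U138MG, hold none of the E2F strings in their windows and hold 3 CCAAT boxes each. CHTF18 shares this pattern but fell less there, and TIPIN, which rose there, also holds no E2F string. TYMS, the next lowest in U138MG, holds an E2F string and no CCAAT box. The E2F strings were found in 25 of the 38 member windows (65.8%) and in 13.1% of all 27305 windows, CCAAT in 55.3% and 35.7%, and TTTGAA in 5.26% and 15.4%. Of the 34 E2F matches in the members, 27 lay within 100 bases of the start. The member windows and all windows were not matched for base composition. A match describes letters in a window and was not tied to binding by any measurement here.

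Total counts per library lay between 18800932 and 26514658, and 16389 genes were tested in KYSE30 and 17666 in U138MG, which held 99.9% of the counts of each table. The libraries labelled U138MG did not carry the defining glial markers OLIG2, S100B and, above a low level, GFAP. In them OLIG2 and S100B had no counts, GFAP stayed between 0.958 and 2.39 normalized CPM (counts relative to library size, with edgeR's TMM factors), and the mesenchymal gene VIM did not exceed 0.506. The 10 glial and mesenchymal markers listed nevertheless summed to 838 to 870 normalized CPM in their DMSO libraries, most of it the matrix gene SPARC (662 to 691), with FN1 (68.7 to 76.4), COL1A1 (50.6 to 52.8) and SOX2 (35.8 to 38.9) next, and to 480 to 499 with PTDSS1i. In KYSE30 the sum over the 8 that its table lists was 199.6 to 234.5 in DMSO and 180.2 to 185.2 with PTDSS1i. In the U138MG libraries the squamous keratin KRT5 stood at 1307 to 1476 normalized CPM in DMSO and the adherens junction gene CDH1 at 436 to 444. Hence the name U138MG stands below only for the label. The KYSE30 libraries had high KRT8 (4262 to 4825 in DMSO) and CDH1, with no more than 3 counts of KRT5 in any library. The sum of 9 epithelial and squamous markers lay between 8884.5 and 9815.6 in the U138MG DMSO libraries and between 3850.2 and 3997.2 with PTDSS1i, where KRT15 and KRT5 fell. In KYSE30 it lay between 7441 and 8230 in DMSO and between 10265 and 10734 with PTDSS1i, where KRT8 and KRT18 rose. Summed leukocyte and endothelial markers went from 33.2 to 40.4 normalized CPM in the U138MG DMSO libraries to 108 to 115 with PTDSS1i, with CD68 the highest of the 5 (24 to 29.9 and 104 to 111), and stayed at or under 1.10 in KYSE30. The part of these marker changes in the members' results was not tested. The labels also place KYSE30 in batch 1 and U138MG in batch 2, so that line and batch cannot be told apart. The labels give both lines the same growth medium, while the study's methods name another for U138MG.

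In KYSE30 all 43 members fell with PTDSS1i, and in U138MG 35 fell, 1 rose and 7 were not called by edgeR's quasi-likelihood test, Benjamini-Hochberg adjusted, with a threshold of 0.05. Among all tested genes, 32% were lower and 30.1% higher in KYSE30, and 33.6% were lower and 33.9% higher in U138MG. Scaling by library size alone moved the median log2 fold change of all genes in U138MG to -0.17, and 40 members were then lower and 1 higher. The median log2 fold change of the members was -1.52 in KYSE30 and -0.48 in U138MG, against -0.03 over all tested genes in each line. A fall of more than 2-fold was seen for 39 members in KYSE30 and for 3 in U138MG (RRM2, ASF1B and TYMS), where the share over all genes was 7.04% and 11.6%. The members together took 0.455% to 0.478% of the counts in KYSE30 DMSO libraries and 0.161% to 0.164% with PTDSS1i. In U138MG their share went from 0.272% to 0.291% in DMSO to 0.167% to 0.184%. Every member was well counted, with at least 90 reads in each library. In KYSE30 no member overlapped between the treatments, where the share of all genes that were lower without overlap was 34.2%. In U138MG 33 members were lower and 1 was higher without overlap, against 35.9% and 35.5% of all genes, and 9 members overlapped. PTDSS1i replicate 3 of U138MG had the highest value of its group for 38 of the 43 members, and the members' summed level was 1753, 1826 and 1945 normalized CPM in its PTDSS1i replicates 1 to 3.

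**Figure D1:**
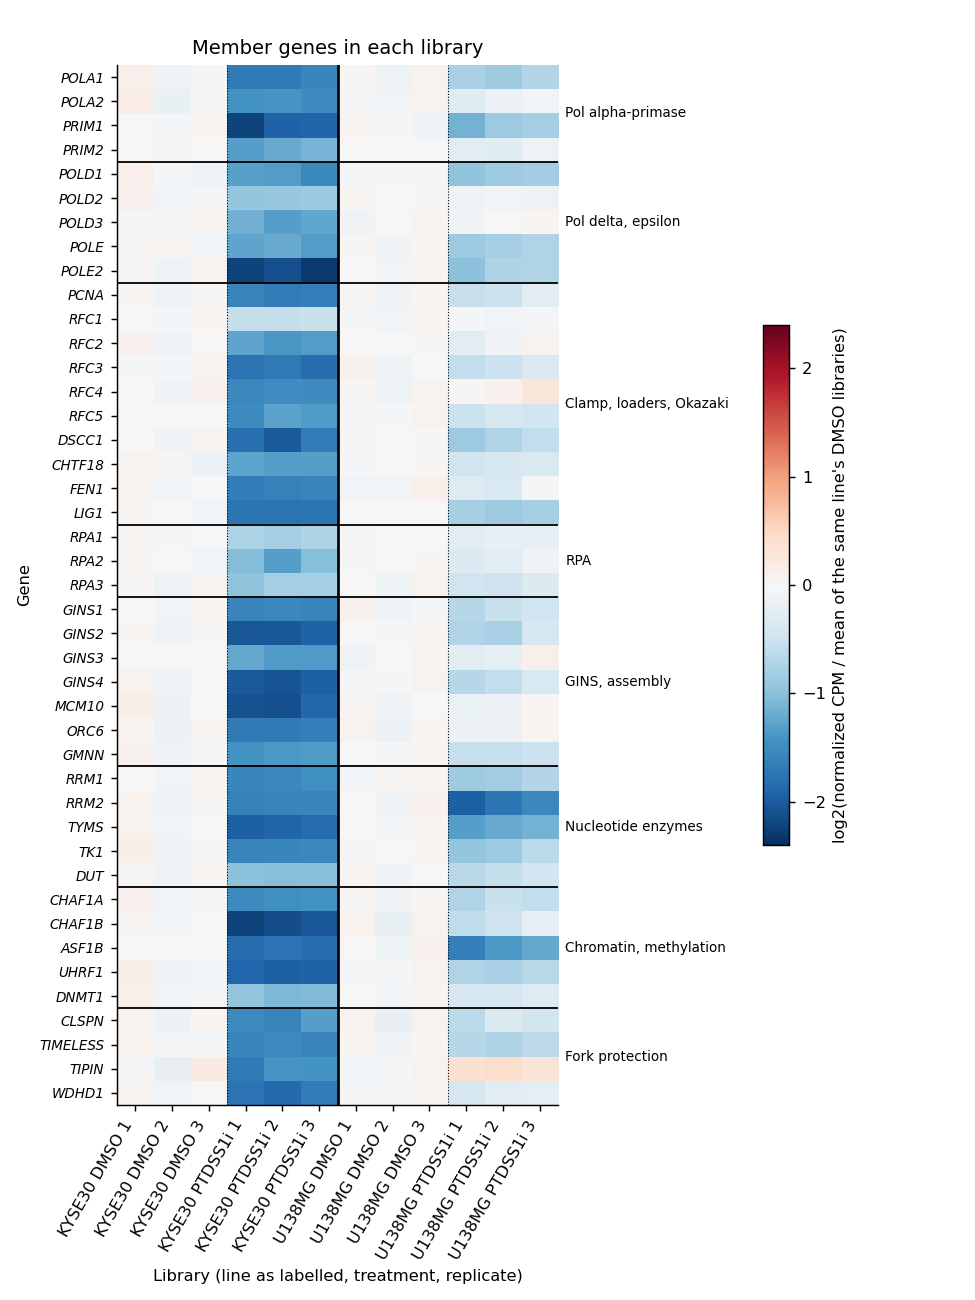
Heat map of the 43 members (rows, grouped by role) in the 12 libraries (columns). Colour is the log2 ratio of the normalized CPM to the mean of the same line's DMSO libraries, so that blue is lower and red is higher: all 43 rows are blue in the KYSE30 PTDSS1i libraries, and the U138MG PTDSS1i libraries are paler, with RRM2 and ASF1B darkest and TIPIN red.

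DNA polymerase alpha-primase makes the RNA-DNA primers of each new strand. All 4 of its genes fell in both lines, with a median log2 fold change of -1.55 in KYSE30 and -0.50 in U138MG. PRIM1, the catalytic primase subunit, fell most in both. In KYSE30, PRIM1 read 23.9, 23.7 and 25 normalized CPM in DMSO replicates 1 to 3 and 5.17, 6.32 and 6.40 in the PTDSS1i replicates, so that it fell to 24.7% of its DMSO level (log2 fold change -2.02, 95% interval -2.22 to -1.82). In U138MG the PRIM1 values were 27.3, 26.6 and 24.6 in DMSO and 11.9, 14.4 and 14.9 with PTDSS1i (log2 fold change -0.93, 95% interval -1.10 to -0.76). The groups lay far apart in both lines. Exons of PRIM1 overlap those of other genes, among them the abundant gene NACA on the same strand, over 21.6% of its exonic length in GENCODE v29. PRIM2, the regulatory primase subunit, fell least in KYSE30, from 47.1, 45.9 and 46.8 to 18.6, 20.1 and 21.6 (log2 fold change -1.21, 95% interval -1.35 to -1.07). POLA2, the accessory subunit of the polymerase, fell least in U138MG, where its values were 33.3, 32.4 and 36.2 in DMSO and 27.7, 30.9 and 32.4 with PTDSS1i (log2 fold change -0.16, 95% interval -0.30 to -0.03). The highest PTDSS1i library then just reached the lowest DMSO library, and the adjusted p by edgeR's quasi-likelihood test, Benjamini-Hochberg adjusted, was 0.0338, which rose to 0.0563 to 0.285 when DMSO replicate 1 or 3 or PTDSS1i replicate 1 or 2 was left out. With all libraries kept, the call was also lost with DESeq2, without the filter on low counts, and in 1 fit for both lines. Exons of AP000944.2 on the same strand overlap 35.1% of the exonic length of POLA2 in GENCODE v29. That gene had 13 summed counts in KYSE30 and 6 in U138MG. POLA1, the catalytic polymerase subunit, had log2 fold changes of -1.65 in KYSE30 and -0.78 in U138MG.

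Polymerases delta and epsilon carry out the bulk of synthesis. All 5 genes fell in KYSE30 (median -1.27) and 4 of 5 in U138MG (median -0.79). POLE2, the second subunit of polymerase epsilon, had the largest fall of all 43 members in KYSE30, from 20.1, 18.4 and 21 normalized CPM in DMSO to 4.24, 4.59 and 4.00 with PTDSS1i, or 21.5% of the DMSO level (log2 fold change -2.22, 95% interval -2.43 to -1.998). No PTDSS1i library came near the DMSO range. POLE, the catalytic subunit, fell less there (-1.27), whereas in U138MG the log2 fold changes lay close together (-0.79 for POLE and -0.81 for POLE2). POLD2, an accessory subunit of polymerase delta, fell least in KYSE30, from 204, 183 and 186 to 100.0, 102 and 104 (log2 fold change -0.91, 95% interval -1.02 to -0.80). In U138MG it was POLD1, the catalytic subunit of polymerase delta, that fell most, from 85.7, 90.3 and 90 to 45.1, 49.1 and 49.9 (log2 fold change -0.88, 95% interval -0.98 to -0.79). POLD3, another accessory subunit, read 38.3, 40.3 and 42.5 in the U138MG DMSO libraries and 38.1, 40 and 42.4 with PTDSS1i. These groups overlapped over nearly their whole range (log2 fold change -0.01, 95% interval -0.13 to 0.11; adjusted p = 0.914 by edgeR's quasi-likelihood test, Benjamini-Hochberg adjusted), although the same gene fell to 42.4% in KYSE30. POLD2 in U138MG fell by only 0.11 on the log2 scale (adjusted p = 0.00993 by the same test), and this call was lost without DMSO replicate 1 or PTDSS1i replicate 1.

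The clamp PCNA, its loaders and the Okazaki enzymes all fell in KYSE30, 10 of 10, with a median log2 fold change of -1.57. In U138MG 7 of 10 fell (median -0.42). PCNA stood at 337, 309 and 332 normalized CPM in KYSE30 DMSO libraries and at 108, 103 and 104 with PTDSS1i (log2 fold change -1.64, 95% interval -1.75 to -1.53). In U138MG it moved from 92.9, 85.3 and 94.2 to 61.6, 63.8 and 76.3 (log2 fold change -0.43, 95% interval -0.63 to -0.23). Both comparisons were free of overlap, and the fall was smaller in U138MG. DSCC1, a subunit of the alternative CTF18 loader, fell most of this set in KYSE30, from 37.1, 34.9 and 38.9 to 10.5, 9.18 and 11.5 (log2 fold change -1.82, 95% interval -1.997 to -1.65), and its partner CHTF18 had log2 fold changes of -1.30 and -0.41 in KYSE30 and U138MG. RFC1, the large subunit of the main loader, fell least of all 43 members in KYSE30, from 85.5, 84.4 and 88.7 to 58.1, 58 and 59.8, or to 68% (log2 fold change -0.56, 95% interval -0.67 to -0.45). Its small partners RFC2 to RFC5 had log2 fold changes between -1.77 and -1.33 there.

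In U138MG the calls of the loader genes split, and no difference between the subunits was tested. RFC3 and RFC5 fell (-0.48 and -0.45), while RFC1, RFC2 and RFC4 were not called. Scaling by library size alone or by the upper quartile called RFC1 and RFC2 lower. RFC2 was also called lower without PTDSS1i replicate 3. RFC4 had the highest log2 fold change of the set, with 36.2, 32.9 and 37.8 in DMSO and 36.2, 38.4 and 43.6 with PTDSS1i (log2 fold change 0.15, 95% interval 0.005 to 0.29; adjusted p = 0.0633 by edgeR's quasi-likelihood test, Benjamini-Hochberg adjusted). One PTDSS1i library lay inside the DMSO range and the others above it, and the call became higher without DMSO replicate 3 or PTDSS1i replicate 1 (adjusted p = 0.0344 and 0.012 by the same test). LIG1, the ligase that seals Okazaki fragments, fell most of the set in U138MG, from 111, 112 and 112 to 64.6, 61.2 and 64.6 (log2 fold change -0.81, 95% interval -0.90 to -0.73), with both groups tightly spaced. The flap nuclease FEN1 fell to 32.6% in KYSE30 but only to 84.9% in U138MG, where the groups overlapped (adjusted p = 0.0393 by the same test) and the call was lost in 5 of the 6 fits that left out a library.

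RPA coats single-stranded DNA, and its 3 genes fell less than the other sub-groups in both lines, by medians of -0.86 in KYSE30 and -0.23 in U138MG. RPA2, the middle subunit, fell most in KYSE30, from 39.4, 38 and 35.9 to 18.5, 15.1 and 18.7 normalized CPM (log2 fold change -1.11, 95% interval -1.28 to -0.95). RPA1, the large DNA-binding subunit, fell least in both lines. Its values were 229, 213 and 219 in KYSE30 DMSO libraries and 130.3, 125 and 133 with PTDSS1i (log2 fold change -0.77, 95% interval -0.88 to -0.66), and 179.6, 175 and 176 and 149, 153 and 154 in U138MG (log2 fold change -0.22, 95% interval -0.29 to -0.15). The small subunit RPA3 fell most in U138MG, from 36.1, 33.3 and 37.6 to 25.7, 25.1 and 28.5 (log2 fold change -0.43, 95% interval -0.57 to -0.29). None of these groups overlapped.

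GINS, MCM10, ORC6 and geminin (GMNN) act in the assembly, activation or restraint of the replicative helicase. All 7 genes fell more than 2-fold in KYSE30, with a median of -1.68. GINS4, GINS2 and MCM10 lay within 0.01 of each other at about -2.02 to -2.01, the deepest falls of the set. GINS4 went from 54.5, 48.1 and 51.7 to 12.7, 12.2 and 13.2 normalized CPM (log2 fold change -2.02, 95% interval -2.17 to -1.87). Exons of other genes on the opposite strand overlap 23.6% of its exonic length in GENCODE v29. Of these, AC009630.1 had 2850 summed counts in U138MG against 2845 for GINS4, and 27 against 4116 in KYSE30. The part of this overlap in the GINS4 values was not tested. GINS3 fell least, from 25.8, 26 and 26.4 to 11.2, 10.2 and 10.1 (log2 fold change -1.31, 95% interval -1.48 to -1.15). In U138MG 4 of 7 fell (GINS1, GINS2, GINS4 and GMNN, between -0.61 and -0.54). GINS2 was the lowest, with 12.4, 11.9 and 12.7 in DMSO and 7.46, 7.23 and 9.38 with PTDSS1i (log2 fold change -0.61, 95% interval -0.84 to -0.39). ORC6, a subunit of the origin recognition complex, was the highest, with 29.5, 25.3 and 28.8 and 25.2, 25.2 and 29.3 and overlapping groups (log2 fold change -0.06, 95% interval -0.22 to 0.09; adjusted p = 0.459 by edgeR's quasi-likelihood test, Benjamini-Hochberg adjusted). MCM10 was not called in U138MG either (log2 fold change -0.08, 95% interval -0.29 to 0.14), nor was GINS3 (-0.11).

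The nucleotide enzymes include RRM2 and TYMS, which with ASF1B were the members that fell over 2-fold in U138MG. All 5 fell in both lines, with medians of -1.56 and -0.80. TYMS, thymidylate synthase, fell most in KYSE30, from 287, 261 and 269 normalized CPM to 69.8, 72.1 and 75.6, or 26.6% of the DMSO level (log2 fold change -1.91, 95% interval -2.02 to -1.79). In U138MG it went from 313, 298 and 324 to 124, 135 and 143 (log2 fold change -1.22, 95% interval -1.31 to -1.12). Its exons (chr18:657604-673578, plus strand, GENCODE v29) overlap those of ENOSF1 and TYMSOS on the opposite strand over 46.6% of their length, and the library kit named in the labels does not mark strand. ENOSF1 had 28389 summed counts in U138MG against 29907 for TYMS, and 7840 against 22126 in KYSE30. The part of this overlap in the TYMS values was not tested. RRM2, the small subunit of ribonucleotide reductase (chr2:10120698-10131419, plus strand) fell most in U138MG. Its values there were 131, 124 and 141 in DMSO and 33.7, 39.4 and 45.3 with PTDSS1i, a fall to 30% (log2 fold change -1.74, 95% interval -2.05 to -1.43; adjusted p = 9.43e-05 by edgeR's quasi-likelihood test, Benjamini-Hochberg adjusted). In KYSE30 RRM2 read 204, 177 and 195 and 62.4, 64.4 and 64.1, a fall to 33.1% (log2 fold change -1.59, 95% interval -1.71 to -1.48). The treatments stayed well apart in both lines. Exons of AC007240.1 on the same strand overlap 20.2% of the exonic length of RRM2 in GENCODE v29, and neither count table lists that gene. RRM1, the large subunit, fell to 34.8% in KYSE30 and to 57.8% in U138MG. TK1, the cytosolic thymidine kinase, fell to 33.8% and 57.3%. DUT, which removes dUTP, had the smallest fall in both lines. It went from 102, 94.2 and 104 to 50.6, 49.4 and 49.2 in KYSE30 (log2 fold change -1.01, 95% interval -1.13 to -0.89) and from 69.8, 63.1 and 67.1 to 42.1, 44.7 and 48.5 in U138MG (log2 fold change -0.56, 95% interval -0.67 to -0.45).

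**Figure D2:**
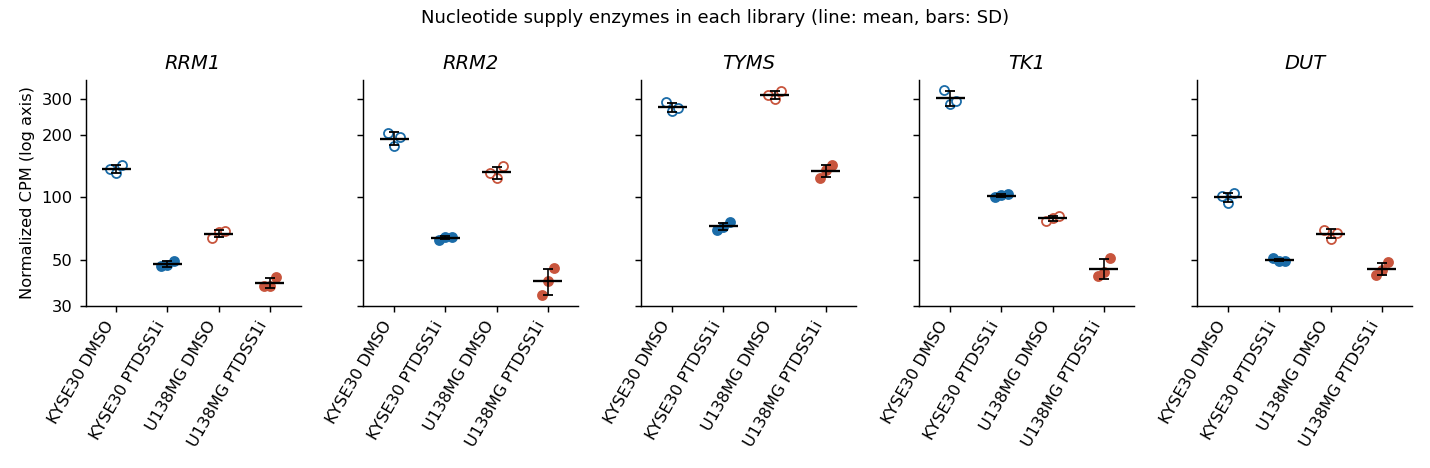
Normalized CPM (log axis) of the 5 nucleotide supply genes in each of the 12 libraries, with open points for DMSO, filled points for PTDSS1i, a line at the mean and bars of 1 SD (n = 3). No gene overlaps between treatments within a line, and RRM2 shows the widest gap of the 5 in U138MG (124 to 141 in DMSO, 33.7 to 45.3 with PTDSS1i). The lines were normalized separately.

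The genes of chromatin assembly and maintenance methylation fell in both lines, 5 of 5, with the lowest median of any sub-group in KYSE30 (-1.81) and -0.61 in U138MG. CHAF1B, a subunit of the histone chaperone CAF-1, fell most in KYSE30, from 49.5, 45.9 and 48 normalized CPM to 10.3, 10.9 and 11.6 (log2 fold change -2.12, 95% interval -2.28 to -1.97). In U138MG the same gene fell only to 74.9% (-0.42). ASF1B, a histone H3-H4 chaperone, fell most of the set in U138MG, from 34.5, 32.1 and 37 to 11, 13.2 and 14.7 (log2 fold change -1.41, 95% interval -1.59 to -1.23), and had a log2 fold change of -1.81 in KYSE30. UHRF1, which reads hemimethylated DNA, fell to 26% and 60.8%. DNMT1, the maintenance methyltransferase, fell least in both lines. It stood at 357, 313 and 318 and 171, 155 and 158 in KYSE30 (log2 fold change -1.03, 95% interval -1.15 to -0.91), and at 116, 111 and 122 and 87.8, 87.8 and 94.3 in U138MG (log2 fold change -0.37, 95% interval -0.46 to -0.28).

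Among the fork protection genes, all 4 fell in KYSE30 (median -1.54), whereas in U138MG 3 fell and TIPIN rose. WDHD1, which ties polymerase alpha to the helicase, fell most in KYSE30, from 58.9, 53.3 and 55.9 to 16.4, 15.4 and 17.5 normalized CPM (log2 fold change -1.77, 95% interval -1.91 to -1.62). CLSPN, the checkpoint mediator claspin, fell least there, from 66.8, 57.6 and 65.5 to 21.9, 20.7 and 25.2 (log2 fold change -1.48, 95% interval -1.64 to -1.32). TIMELESS fell most in U138MG, from 109.6, 99.7 and 109.7 to 66.4, 63.4 and 68.8 (log2 fold change -0.68, 95% interval -0.78 to -0.59). TIPIN (chr15:66336206-66386746, minus strand) encodes the binding partner of TIMELESS and was the only member called in opposite directions. In KYSE30 it read 13.4, 12.1 and 15.9 in DMSO and 4.24, 5.20 and 5.12 with PTDSS1i (log2 fold change -1.51, 95% interval -1.77 to -1.25). In U138MG it read 10.9, 11.3 and 12.2 and 14.8, 15.4 and 14.2 (log2 fold change 0.37, 95% interval 0.18 to 0.55; adjusted p = 0.000768 by edgeR's quasi-likelihood test, Benjamini-Hochberg adjusted). All 3 treated libraries were above all 3 controls in U138MG and below them in KYSE30. The pseudogene RPL9P25 overlaps 21% of the exonic length of TIPIN on the same strand, with no more than 9 counts in any U138MG library.

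**Figure D3:**
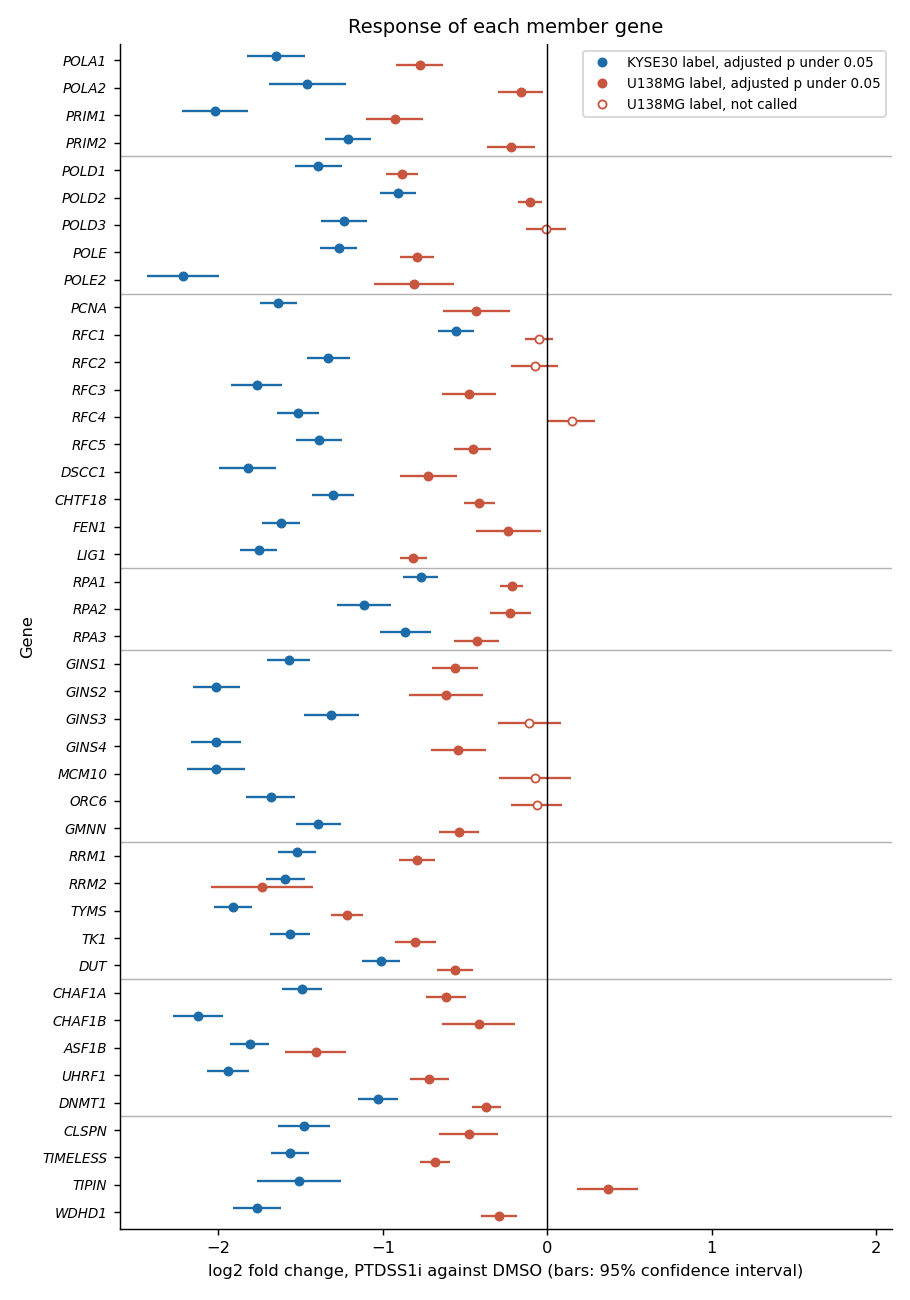
Log2 fold change of PTDSS1i against DMSO (horizontal axis) for each member, with bars of the 95% confidence interval, blue for KYSE30 and red for U138MG, and open points for genes not called. All blue points lie between -2.22 and -0.56, and the red points lie to their right for every gene but RRM2.

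Whether the lines differed was tested as the interaction of line and treatment in 1 fit over 18405 genes. In this test 42 of 43 members were called at an adjusted p under 0.05, each with a higher log2 fold change in U138MG than in KYSE30, where 25.5% of all genes were called in that direction and 24.4% in the other. The differences ranged from 0.36 for ASF1B to 1.90 for MCM10, followed by TIPIN at 1.84. RRM2 was the exception, with a difference of -0.18 (95% interval -0.46 to 0.0971; adjusted p = 0.271 by edgeR's quasi-likelihood test, Benjamini-Hochberg adjusted). Without U138MG PTDSS1i replicate 3, RRM2 was called as falling further in U138MG (-0.31, adjusted p = 0.00894 by the same test) and ASF1B lost its call (0.24, adjusted p = 0.057). Line, batch label and count table coincide in this comparison. Across the 43 members the log2 fold changes of the lines had a Pearson r of 0.375 and a Spearman rho of 0.442, given as a description over genes that share libraries, and 0.44 and 0.459 over 41 members without RRM2 and TIPIN.

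Levels were compared between genes per kilobase of merged exon (GENCODE v29), scaled to the same total in each library as TPM values are. In KYSE30 DMSO libraries PCNA was the highest member at 764 ± 19.4 (SD, n = 3), followed by TK1 at 557 ± 28.3, TYMS at 379.8 ± 5.60 and FEN1 at 236 ± 5.06. In U138MG TYMS led with 448 ± 18.7, before PCNA at 219 ± 10.6, POLD2 at 171 ± 3.91 and TK1 at 151 ± 5.60. POLA2 was the lowest of the 43 in KYSE30 (8.56 ± 0.743) and MCM10 in U138MG (6.66 ± 0.292). With PTDSS1i the leading genes kept their places in KYSE30 (PCNA, TK1 and TYMS) and TYMS still led in U138MG, while RRM2 moved from rank 6 to rank 21 there. Across members the log2 fold change had a Pearson r with the log2 DMSO level of 0.0852 in KYSE30 and of -0.293 in U138MG, again a description over genes that share libraries.

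Within a complex, the share of each listed member in their summed per-length level shows whether the listed members moved alike. The share does not depend on the scaling of the library. Subunits outside the list were left out of the sums, among them POLE3 and POLE4 of polymerase epsilon, POLD4 of polymerase delta and RBBP4 of CAF-1. In 9 complexes and both lines this gave 54 comparisons by an exact two-sided permutation test. With 3 libraries against 3 the smallest p is 0.1, so that none could pass 0.05 (the smallest adjusted p was 0.154). The treatments did not overlap for 8 subunits with a higher and 9 with a lower share among 27 in KYSE30, and for 9 and 9 among 27 in U138MG. Shares within a complex add up to a fixed total, so that the comparisons are not separate. In a pair of genes a gain of either is an equal loss of the other. The subunits given here were chosen after their values were seen, and no test of a difference in share between the lines was run. RRM2 made up 61.6, 58.8 and 61.8% in DMSO and 41.6, 45.3 and 46.3% in PTDSS1i of the reductase genes in U138MG, but 53.9, 51.6 and 51.7% in DMSO and 51.4, 51.8 and 50.5% in PTDSS1i in KYSE30. The U138MG groups were apart by over 12 percentage points and the KYSE30 groups overlapped. TIPIN's share of the TIMELESS-TIPIN pair was 17.3, 19.3 and 19% in DMSO and 32, 33.9 and 30.3% in PTDSS1i in U138MG, and 18, 17.7 and 21.9% in DMSO and 17.9, 20.6 and 21% in PTDSS1i in KYSE30. There too the groups were apart in U138MG and overlapped in KYSE30. POLE2 in polymerase epsilon held 42.4, 40.1 and 45.3% in DMSO and 27.6, 28.4 and 27.6% in PTDSS1i in KYSE30 and 38.9, 39.7 and 39.4% in DMSO and 37.5, 40.4 and 39.1% in PTDSS1i in U138MG. Its groups were apart in KYSE30 and overlapped in U138MG. CHAF1B in CAF-1 held 26.6, 27.3 and 27.7% in DMSO and 18.9, 19.2 and 20% in PTDSS1i in KYSE30 without overlap, and 25, 23.1 and 24.7% in DMSO and 25.8, 24.8 and 29.8% in PTDSS1i in U138MG with overlap. PRIM1 lost share in polymerase alpha-primase in both lines (35.4, 37.3 and 37.5% in DMSO and 25.2, 28 and 27% in PTDSS1i in KYSE30, and 39.8, 40.2 and 36.3% in DMSO and 27.9, 31.4 and 30.3% in PTDSS1i in U138MG). RFC1 gained share in its loader in KYSE30 (9.78, 10.5 and 10.2% in DMSO and 17.1, 17 and 17.6% in PTDSS1i). In U138MG it gained less, also without overlap (20.7, 21 and 21.2% in DMSO and 24.1, 22.4 and 21.3% in PTDSS1i).

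**Figure D4:**
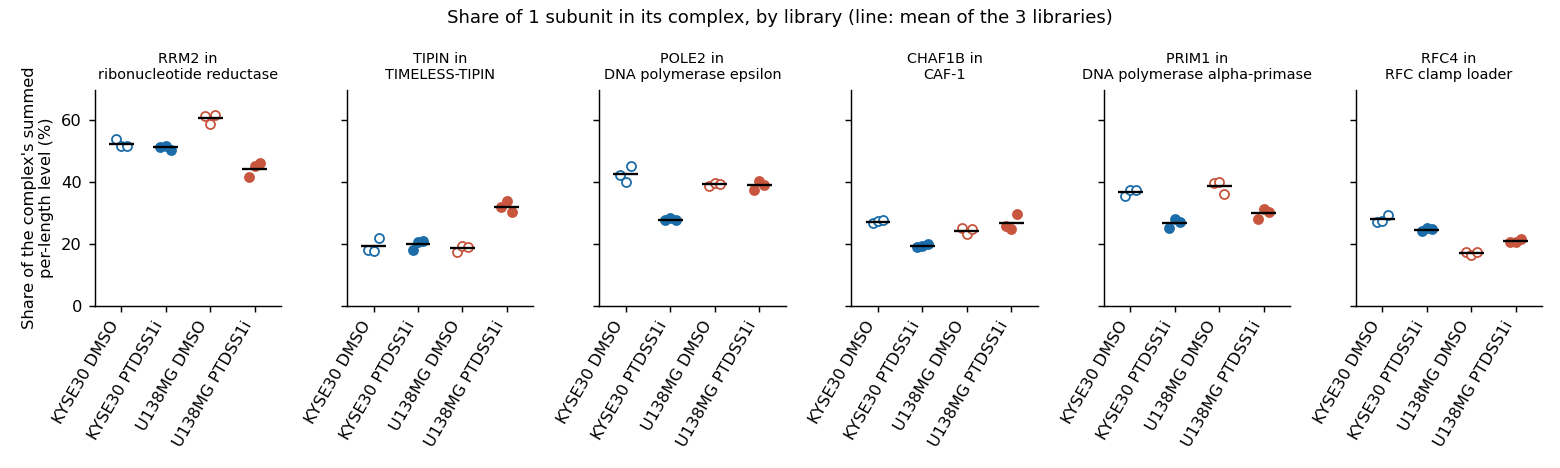
Share (%) of 1 named subunit in the summed per-length level of the listed members of its complex, for each library. Open points are DMSO, filled points are PTDSS1i, and a line marks the mean of the 3 libraries. RRM2 and TIPIN overlap between treatments in KYSE30 and not in U138MG, POLE2 and CHAF1B overlap in U138MG and not in KYSE30, and PRIM1 overlaps in neither, while RFC4 moves down in KYSE30 and up in U138MG.

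Other replication genes were counted from lists of their own, with the share of each list in brackets. Over all tested genes 32% were lower and 30.1% higher in KYSE30, and 33.6% were lower and 33.9% higher in U138MG. Of 17 licensing genes, which load the MCM helicase at origins, 16 fell (94.1%) in KYSE30 (median -1.63). MCM5 was lowest there at -2.21, and ORC4 was highest at -0.03 and not called. In U138MG 10 fell (58.8%) and 4 rose (23.5%), with a median of -0.27, MCM3 lowest at -0.78 and ORC3 highest at 0.52. Of 22 further fork genes, 18 fell (81.8%) and 1 rose (4.55%) in KYSE30, and 15 fell (68.2%) and 4 rose (18.2%) in U138MG. CDCA7, which recruits a remodeller for methylation, was lowest in KYSE30 (-2.54), and the PCNA-binding gene PCLAF in U138MG (-1.98). POLD4, the smallest subunit of polymerase delta and no member of the list above, was highest in both lines and rose in both (0.83 and 1.14).

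Of 22 other deoxynucleotide and salvage genes, 14 fell (63.6%) and 6 rose (27.3%) in KYSE30, against 32% and 30.1% of all tested genes. In U138MG 6 fell (27.3%) and 13 rose (59.1%), against 33.6% and 33.9% of all tested genes. NUDT1, which clears oxidized nucleotides, was lowest in KYSE30 (-1.40). The cytidine deaminase gene CDA was highest in both lines. In U138MG its log2 fold change was 1.75, while in KYSE30 its fitted value of 2.86 rests on DMSO libraries at 0.147 to 0.202 normalized CPM, about the level of 3 counts. Of the de novo purine and pyrimidine genes, 16 of 17 fell (94.1%) in KYSE30 (DHODH lowest at -1.59, ADSS2 highest at 0.51). In U138MG 5 of 16 fell (31.2%, near the share of all tested genes) and 7 rose (43.8%). IMPDH2 was lowest there at -0.75 and CTPS1 highest at 0.89.

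Of 18 other chromatin genes, 13 fell (72.2%) in KYSE30 (DNMT3B lowest at -1.65, UBN1 highest at 0.07 and not called). In U138MG 10 fell (55.6%) and 3 rose (16.7%), with NASP lowest at -0.66 and ASF1A highest at 0.29. Of 11 genes of mitochondrial DNA replication, 10 fell (90.9%) in KYSE30 (TWNK lowest at -0.82, POLG highest at 0.28). In U138MG 4 fell (36.4%, near the 33.6% of all tested genes) and 7 rose (63.6%). TFAM was lowest there at -0.33 and TFB2M highest at 0.48. Of 13 translesion genes, 7 fell (53.8%) and 5 rose (38.5%) in KYSE30 (RAD18 lowest at -0.90). In U138MG 3 fell (23.1%) and 4 rose (30.8%), with POLH lowest at -0.72. Both U138MG shares lay below those of all tested genes (33.6% and 33.9%). The ubiquitin-conjugating gene UBE2B was the highest of the translesion genes in both lines (1.11 and 0.98). Genes of G2/M and mitosis were lower in both lines. In KYSE30 19 of 20 fell (95%), with a median of -1.49, CENPF lowest at -2.22 and NUSAP1 highest at 0.19 and not called. NUSAP1 had only 7 to 17 counts in each KYSE30 library, and the 95% interval of CENPF was wide (-3.27 to -1.16). In U138MG 20 of 20 fell, with a median of -1.61, CENPF lowest at -2.93 and ECT2 highest at -0.58. Beside these the members' medians were -1.52 and -0.48.

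**Figure D5:**
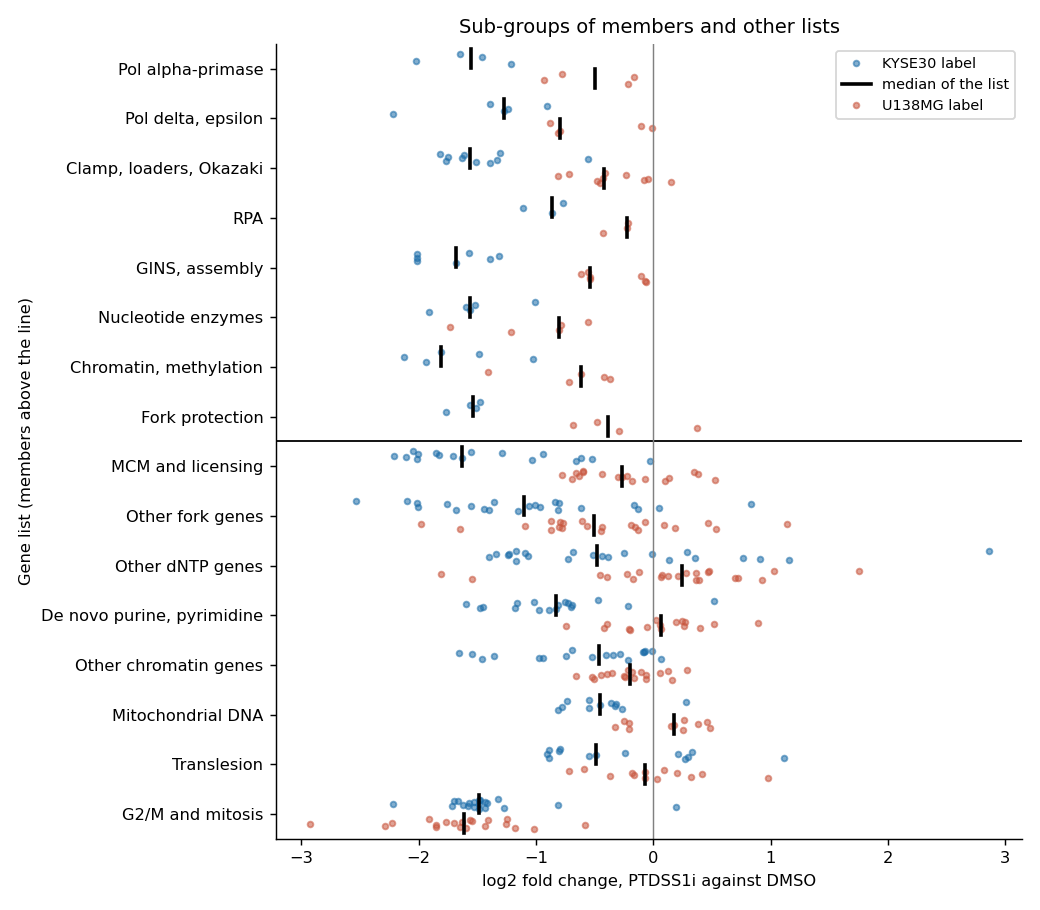
Log2 fold change of PTDSS1i against DMSO (horizontal axis) for each gene of the 8 sub-groups of members (above the line) and of 8 other lists (below it), blue for KYSE30 and red for U138MG, with a black bar at each median. The members' medians lie further left in KYSE30 in all 8 sub-groups, while the G2/M and mitosis medians lie at -1.49 and -1.61.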

How the data were processed

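Poly-A RNA-seq libraries from cells labelled KYSE30 and U138MG, 3 with PTDSS1i and 3 with DMSO each, were analysed from raw counts that the authors deposited per gene in 1 table a line, without normalization. The submitters' processing notes name Trimmomatic, STAR, featureCounts and hg38. Versions, the gene annotation and the strand setting are not given in the sources used here, and the tables list different gene sets (30984 and 78691 genes). The members and gene lists were chosen with earlier results of these data known. Analysis used R 4.3.3 with edgeR 4.0.16, limma 3.58.1 and DESeq2 1.42.0, and Python 3.11.15.

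Genes were kept by edgeR's filterByExpr (minimum count 10, minimum total 15) and TMM factors were applied. Within a line, PTDSS1i was set against DMSO by edgeR's quasi-likelihood test (robust fit), with p-values adjusted over all tested genes after Benjamini-Hochberg at 0.05, and the lines were compared by the interaction term over shared genes. The study's methods name no test for these libraries. Every member is named, with values by library for the member that fell most and the one with the highest fold change in each sub-group and line, and for the member with opposite calls. In the other lists the genes with the lowest and highest log2 fold change are named, except for 1 result that is not reported here. Groups came from the labels, which call the samples replicates, and p-values measure only the spread between them. Every replicate pair differed by more than the sampling noise (chi-square per degree of freedom of 2.29 to 7.44), so each library was kept as a sample. In the smallest library 3 counts correspond to 0.16 CPM, which covers counting error only. Scripts were tested on simulated data. Exon lengths and overlaps came from GENCODE v29, whose match to the authors' annotation is unknown, and lengths were matched for 99.9% of the counts in KYSE30 and 99% in U138MG. Alternatives were library size alone, upper-quartile scaling, DESeq2, other filters, leaving out each library, a replicate block, 1 fit for both lines, and a threshold of 1 on the absolute log2 fold change.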

Additional observations from a re-analysis of the deposited data

Results flagged for a closer look

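The response to PTDSS1i differed between the lines, by the interaction test, for 42 of the 43 members. Values are the log2 fold change in U138MG minus that in KYSE30, and a positive value means that the gene fell less in U138MG or rose there. For DNA polymerase alpha-primase the difference was 1.26 for POLA2, 1.05 for PRIM1, 0.95 for PRIM2 and 0.84 for POLA1. For the polymerase delta and epsilon genes the difference was 1.37 for POLE2, 1.19 for POLD3, 0.76 for POLD2, 0.47 for POLD1 and 0.44 for POLE. For the clamp, loader and Okazaki genes the difference was 1.62 for RFC4, 1.34 for FEN1, 1.25 for RFC3, 1.21 for RFC2, 1.17 for PCNA, 1.06 for DSCC1, 0.90 for LIG1, 0.90 for RFC5, 0.85 for CHTF18 and 0.47 for RFC1. For RPA the difference was 0.85 for RPA2, 0.51 for RPA1 and 0.40 for RPA3. For the GINS and assembly genes the difference was 1.90 for MCM10, 1.58 for ORC6, 1.44 for GINS4, 1.36 for GINS2, 1.16 for GINS3, 0.97 for GINS1 and 0.81 for GMNN. For the nucleotide enzymes the difference was 0.72 for TK1, 0.69 for RRM1, 0.65 for TYMS and 0.41 for DUT. For the chromatin genes the difference was 1.67 for CHAF1B, 1.18 for UHRF1, 0.84 for CHAF1A, 0.62 for DNMT1 and 0.36 for ASF1B. For the fork protection genes the difference was 1.84 for TIPIN, 1.43 for WDHD1, 0.97 for CLSPN and 0.84 for TIMELESS. The lines also differ in batch label, in the annotation of their count table and in how far the libraries match their label, and the part of each in these differences was not tested.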

How the results depend on the processing

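In KYSE30 every member kept its direction and its call in all alternatives run, except that 39 of 43 passed a further threshold of 1 on the absolute log2 fold change. In U138MG that threshold left 3 members lower and 0 higher. Leaving out 1 library at a time, 31 to 37 members were lower and 1 to 2 higher in U138MG, and 41 to 42 members were called higher and 0 to 1 lower in the difference between the lines. Without the filter on low counts, and with the replicate block, 2 members were higher in U138MG, RFC4 beside TIPIN. POLD3 in U138MG, which was not called, changed sign to 0.0232 without the filter, and ranged from -0.0418 to 0.0416 when 1 library was left out, with a positive sign without DMSO replicate 3, PTDSS1i replicate 1 or PTDSS1i replicate 2. RFC2 ranged from -0.16 to 0.0158, positive without PTDSS1i replicate 1. Scaling by library size alone moved the median log2 fold change of all tested genes in U138MG from -0.03 to -0.17, and in KYSE30 to -0.13. It called 40 members lower in U138MG, POLD3, RFC1, RFC2, GINS3 and ORC6 among them, as did upper-quartile scaling (median -0.17), and over all genes it turned 5930 lower and 5989 higher calls into 7694 and 4533. In KYSE30 it turned 5238 lower and 4927 higher calls into 6460 and 3932. The cause of these changes was not tested.

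The replicate block changed no member's call but that of RFC4 in U138MG (adjusted p = 0.0305 by edgeR's quasi-likelihood test). Deviations of same-numbered DMSO and PTDSS1i libraries had correlations of 0.02 to 0.075 in KYSE30 and -0.00288 to 0.0484 in U138MG. For unlike numbers they were -0.076 to 0.00613 in KYSE30 and -0.0638 to 0.0559 in U138MG. The same-numbered values were thus the higher in KYSE30 but small in both lines, and the numbers were not taken as pairs. Calls in U138MG with small changes (POLA2, POLD2, FEN1 and PRIM2) did not hold in every alternative. Transcripts that share exons with another gene remain uncertain. Reads of genes that overlap on opposite strands cannot be told apart without strand. For overlaps on the same strand, as in POLA2, PRIM1, RRM2 and TIPIN, strand would not separate them either.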
